A study of Mus musculus with 6 samples.

Results

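Nuclear receptors are transcription factors that share a zinc-finger DNA-binding domain and, in most members, a pocket for a hormone, lipid or metabolite. They act through coregulators: corepressors of the NCoR type recruit histone deacetylases, and p160 coactivators recruit acetyltransferases once a ligand or a surface of the receptor allows it. RORα, encoded by Rora, binds DNA as a monomer at a half-site preceded by A- and T-rich bases and is known for its need in the development of group 2 innate lymphoid cells. The list described here held 46 mouse genes chosen by name, 41 nuclear receptors and 5 coregulators, and was matched by symbol to a table of 24628 genes. Of these, 35 were found, and 19 were expressed at 1 or more RPKM (a read count divided by exon length and by sequencing depth) in 3 or more of 6 libraries. The other 11, Nr1h4, Nr2e1, Nr2e3, Nr5a1, Esr2, Esrrb, Pgr, Hnf4a, Hnf4g, Nr0b1 and Nr0b2, were not analysed here.

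RNA-seq was read from 3 conditional knockout (cKO) and 3 Rora fl/fl (floxed) libraries of mouse lymphocytes that the series text calls ILC1s, innate lymphocytes related to natural killer (NK) cells. The cKO libraries are titled only as treatment, and were assigned by elimination. Their columns add Ncr1, the gene of the NK and ILC1 receptor NKp46, to the name Rora, but no label names a Cre driver. The floxed libraries are called wt in the series text. Ncr1 itself was at 233 to 258 RPKM in cKO and 360 to 381 RPKM in floxed libraries. Tissue is not spelled out beyond the letters LN before ILC1 in the name of the deposited data. Sort gate, age, sex, number of animals and any pooling are not stated either, so p-values cover the spread between these libraries, which may be technical. All 10 genes of a shared ILC1 and NK marker list were expressed, with summed levels of 1218 to 1262 RPKM in cKO and 1410 to 1438 RPKM in floxed libraries. Of these 10, limma called 0 higher and 2 lower, and voom called 0 higher and 3 lower. Depth was 21111333 to 22440170 reads per cKO library and 20152146 to 21711523 per floxed library.

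Several markers of cell identity and cell state, and genes of the sex chromosomes, differed between the groups and stand beside every comparison below. Of 9 NK markers 4 rose, and their summed level was 301.1 to 308.4 RPKM in cKO and 199 to 209.5 RPKM in floxed libraries. Of 9 ILC1 markers 3 fell, with sums of 266.8 to 272.7 RPKM in cKO and 327.1 to 336.7 RPKM in floxed libraries. Of 27 tested immediate-early and dissociation-response genes 19 rose, with sums of 3536 to 3561 RPKM in cKO and 2170 to 2179 RPKM in floxed libraries. The X-linked Xist was at 9.09 to 9.86 RPKM in cKO and 28.3 to 34.3 RPKM in floxed libraries, and the Y-linked Ddx3y at 20.5 to 21.3 RPKM in cKO and 10.02 to 11.0 RPKM in floxed libraries. Both genes were read in every library, and whether the groups differ in sex make-up was not tested. In dendritic cell, T cell and B cell lists 2 of 4, 1 of 6 and 1 of 3 tested markers fell, with summed levels of 126.6 to 128.2, 61.1 to 65.9 and 77.8 to 88.3 RPKM in cKO libraries and 151.4 to 158.5, 68.7 to 71.8 and 76.9 to 81.1 RPKM in floxed libraries. Of the 4 tested dendritic cell markers 2 lay above 0, and voom called 1 of them higher. Of the 3 tested B cell markers 1 lay above 0, and voom called 1 higher and 1 lower. Of the 6 tested T cell markers 1 lay above 0, and voom called 0 higher and 2 lower. Of 9 ILC2 markers 3 were expressed and 0 passed, and Il1rl1, the IL-33 receptor of ILC2s, averaged 0.126 RPKM in cKO and 0.128 RPKM in floxed libraries. The part of any of these in the results below was not tested, and in bulk RNA fewer cells of a type cannot be told apart from less RNA per cell.

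Rora stood at a middle level among the expressed receptors of the list and lay lower in every cKO library, but did not pass the test. It was at 5.69, 6.29 and 6.24 RPKM in cKO and 6.92, 7.41 and 7.91 RPKM in floxed libraries. Every cKO value lay under every floxed value. The mean was 6.07 ± 0.334 RPKM in cKO and 7.42 ± 0.493 RPKM in floxed libraries (SD, n = 3 each), or 81.9% of the floxed level. Rora spans 68653786 to 69388246 on the plus strand of chromosome 9 in mm10, and its counted exons add up to 13071 bases. On log2(RPKM + 1), cKO minus floxed gave -0.25 for Rora, with SE 0.0803 and a 95% interval of -0.44 to -0.06, and the adjusted p = 0.242 from limma missed the 0.05 threshold. An exact two-sided permutation test gave p = 0.1, the smallest value that 20 assignments allow. On reads recovered from the RPKM, limma voom gave adjusted p = 0.0512 with TMM scaling and adjusted p = 0.0242 without it, where the run without TMM was added after the data were seen, and over all 15 alternatives the adjusted p was 0.0242 to 0.465. The deleted part of Rora is not given in the labels and reads of all exons were summed, so this level says nothing on whether the deletion took place. Rorb, the paralog of retina and brain, had 2 reads in 1 cKO library and 0 in the other 5. If each read is an independent count, a count of 0 there allows up to 0.0121 to 0.0134 RPKM.

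Ranked by mean RPKM over 6 libraries, Rora was number 11 of the 19 expressed members and number 8 of the 14 expressed receptors among them. Its rank in single libraries was 9 to 12. The neighbours in that order were Rxra with 6.89 RPKM and Ppard with 6.49 RPKM against 6.74 RPKM for Rora, differences smaller than their spread between libraries. Rora stood at percentile 48.9 of the 12731 tested genes. It supplied 4.83 to 5.03% of the summed RPKM of the listed receptors in cKO and 5.19 to 5.99% in floxed libraries. By reads not divided by length Rora was number 6 of the members and number 3 of the receptors, because its counted exons are long. The plot of levels by library shows this order.

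**Figure D1:**
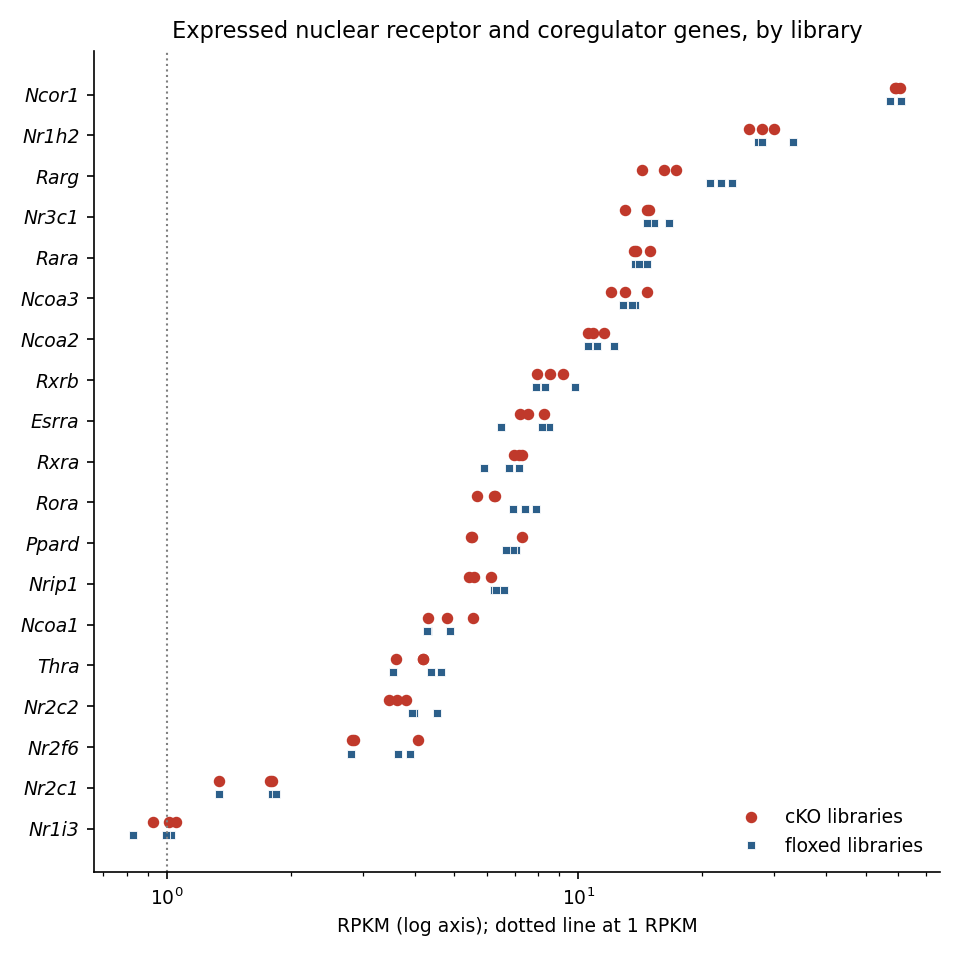
RPKM of the 19 expressed members on a log axis, 1 point per library, with cKO libraries as circles above floxed libraries as squares and a dotted line at 1 RPKM. Ncor1 lies near 60 RPKM at the top, Rora at 5.69 to 7.91 RPKM in the middle and Nr1i3 around 1 RPKM at the bottom.

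The 250 bases before the annotated starts of the 4 expressed members whose groups did not overlap are shown, 6 windows in all, since RORα and many receptors bind variants of the half-site AGGTCA. The sequences are from RefSeq, build GRCm38.p6, whose chromosomes are those of mm10, each on the strand of its gene. The motifs searched on either strand, marked by capitals, were AGGTCA, the variant form AGTTCA, and the extended forms TAGGTCA, which contains the first, and TGGGTCA. The direct repeat known for retinoic acid receptors, a pair of AGGTCA with 5 bases of any kind in between, was searched as well.
Rora chr9:68653536-68653785 plus strand: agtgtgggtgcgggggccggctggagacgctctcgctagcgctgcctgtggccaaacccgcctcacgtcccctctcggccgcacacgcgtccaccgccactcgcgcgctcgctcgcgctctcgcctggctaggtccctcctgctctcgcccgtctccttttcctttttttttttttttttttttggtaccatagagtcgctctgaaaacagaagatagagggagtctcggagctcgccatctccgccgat
Rarg upstream start chr15:102257523-102257772 minus strand: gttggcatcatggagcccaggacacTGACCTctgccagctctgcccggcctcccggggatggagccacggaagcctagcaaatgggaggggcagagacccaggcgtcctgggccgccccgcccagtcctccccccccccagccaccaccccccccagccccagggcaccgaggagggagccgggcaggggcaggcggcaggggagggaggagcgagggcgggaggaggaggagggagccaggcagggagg
Rarg downstream start chr15:102246501-102246750 minus strand: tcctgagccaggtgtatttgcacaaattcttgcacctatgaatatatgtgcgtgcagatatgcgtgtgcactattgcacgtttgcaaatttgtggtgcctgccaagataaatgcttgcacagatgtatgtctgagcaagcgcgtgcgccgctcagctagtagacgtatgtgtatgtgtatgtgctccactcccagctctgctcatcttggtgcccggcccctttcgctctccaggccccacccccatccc
Nrip1 upstream start chr16:76373828-76374077 minus strand: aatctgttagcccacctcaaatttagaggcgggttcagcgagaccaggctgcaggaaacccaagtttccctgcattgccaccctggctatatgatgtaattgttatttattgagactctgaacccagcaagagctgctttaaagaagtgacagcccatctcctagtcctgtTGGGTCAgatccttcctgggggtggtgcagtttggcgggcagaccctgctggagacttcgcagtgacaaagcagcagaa
Nrip1 downstream start chr16:76373050-76373299 minus strand: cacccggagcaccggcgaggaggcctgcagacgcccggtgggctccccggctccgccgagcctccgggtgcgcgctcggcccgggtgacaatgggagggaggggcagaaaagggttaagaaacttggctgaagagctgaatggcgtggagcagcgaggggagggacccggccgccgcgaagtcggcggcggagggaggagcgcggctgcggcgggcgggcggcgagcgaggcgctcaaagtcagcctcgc
Nr2c2 chr6:92092183-92092432 plus strand: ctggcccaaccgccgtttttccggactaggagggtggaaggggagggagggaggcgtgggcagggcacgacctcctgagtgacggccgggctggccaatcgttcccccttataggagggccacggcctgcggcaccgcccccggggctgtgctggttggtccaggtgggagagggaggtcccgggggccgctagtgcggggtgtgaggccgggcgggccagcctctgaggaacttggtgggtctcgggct
The Rora and Nr2c2 windows and the downstream windows of Rarg and Nrip1 held none of the 5 motifs. Windows of the clock genes Arntl, a classical ROR target, and Cry1 were scanned in the same way and held none of them either. The upstream Rarg window held AGGTCA on the opposite strand, 225 bases before the start, where it reads TGACCT. The upstream Nrip1 window held TGGGTCA 79 bases before the start. Windows were found for 15 of the 19 expressed members, 23 windows in all, beside 32851 promoter windows of all genes. The motif AGGTCA was in 2 member windows and in 14.0% of all windows. The variant AGTTCA was in 1 member window and in 11.8% of all. The extended TAGGTCA was in 0 member windows and in 2.23% of all. The extended TGGGTCA was in 1 member window and in 3.24% of all. The direct repeat was in 0 member windows and in 0.00913% of all. A match is only a run of letters, and its absence here says nothing on binding elsewhere in the gene.

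Among the retinoid receptors, which bind vitamin A derivatives, Rarg was the member with the largest difference between the groups. Rarg, the gene of retinoic acid receptor γ, was at 14.3, 17.2 and 16.2 RPKM in cKO and 23.7, 20.9 and 22.2 RPKM in floxed libraries. No cKO value reached the lowest floxed value. The mean was 15.9 ± 1.49 RPKM in cKO and 22.3 ± 1.39 RPKM in floxed libraries (SD, n = 3 each), or 71.4% of the floxed level, resting on 1319 to 2116 reads per library. Its difference on the log2 scale of -0.46 had SE 0.0834 and a 95% interval of -0.66 to -0.26, the adjusted p = 0.0626 from limma missed the threshold, and the exact permutation test gave p = 0.1. Limma voom on recovered reads called Rarg lower, with adjusted p = 0.000709 with TMM and 0.00031 without it, and over all 15 alternatives the adjusted p was 0.00031 to 0.196. Rarg lies on the minus strand of chromosome 15 at 102234938 to 102257517, and no other gene of the table shares its exons. Rara, the gene of retinoic acid receptor α, was at 13.7, 15.0 and 13.8 RPKM in cKO and 13.8, 14.1 and 14.7 RPKM in floxed libraries, which overlap. Its log2 difference was -0.0019, with a 95% interval of -0.15 to 0.15 and an adjusted p = 0.994 in limma. Rarb, itself a classical retinoic acid target, had 0 to 16 reads per library. Summed over the 3 RAR genes the level was 28.1, 32.2 and 30.3 RPKM in cKO and 37.5, 35.1 and 37.1 RPKM in floxed libraries.

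Rxra and Rxrb, the RXR partners with which RARs, LXRs, PPARs and thyroid hormone receptors bind DNA, were both expressed, and Rxrg was not. Rxra averaged 7.15 ± 0.150 RPKM in cKO and 6.63 ± 0.652 RPKM in floxed libraries (SD, n = 3 each), a log2 difference of 0.10 with a 95% interval of -0.11 to 0.30. Rxrb averaged 8.56 ± 0.638 RPKM in cKO and 8.66 ± 0.998 RPKM in floxed libraries, a log2 difference of -0.01 (-0.25 to 0.22). Rxrg had 0 to 10 reads per library. The 3 RXR genes together were at 15.8 ± 0.619 RPKM in cKO and 15.4 ± 0.582 RPKM in floxed libraries.

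In the lipid and thyroid receptor families 1 paralog supplied nearly all RNA. Nr1h2, which encodes the oxysterol receptor LXRβ, was the highest receptor of the list, at 28.0, 26.0 and 30.0 RPKM in cKO and 27.4, 33.2 and 28.0 RPKM in floxed libraries. These groups overlap, with a log2 difference of -0.07 (95% interval -0.29 to 0.14) and 98.4% of LXR RNA from Nr1h2. Nr1h3, which encodes LXRα of macrophages and liver, was at 0.337, 0.226 and 0.324 RPKM in cKO and 0.440, 1.09 and 0.368 RPKM in floxed libraries, resting on 12 to 55 reads. Its groups do not overlap, floxed replicate 2 stands above the rest, and it missed the expression threshold and was not tested. Ppard, the gene of the fatty acid receptor PPARδ, was at 5.48, 7.30 and 5.51 RPKM in cKO and 7.04, 6.94 and 6.68 RPKM in floxed libraries, where 1 cKO library was above every floxed one (log2 difference -0.16, 95% interval -0.43 to 0.11). It made up 99.6% of PPAR RNA, while Ppara had 0 to 6 and Pparg 0 to 2 reads per library. Thra, the thyroid hormone receptor gene α, averaged 3.995 ± 0.346 RPKM in cKO and 4.19 ± 0.577 RPKM in floxed libraries and made up 94.9% of its pair. Thra shares 263 exon bases, 5.7% of its length, with Nr1d1 on the opposite strand, and no source used here gives the strand setting of the counting.

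Nr3c1, the glucocorticoid receptor gene, was the only well expressed steroid hormone receptor of the list. It was at 13.0, 14.8 and 14.7 RPKM in cKO and 15.3, 16.6 and 14.7 RPKM in floxed libraries. The groups overlap narrowly, with a log2 difference of -0.12 (SE 0.0761, 95% interval -0.30 to 0.06) and limma's adjusted p = 0.547. Esr1, the oestrogen receptor gene α, stayed just under the threshold at 0.585 to 0.809 RPKM over the 6 libraries, on 173 to 248 reads. Nr3c2, the mineralocorticoid receptor gene, had 9 to 47 reads per library. Esrra, the orphan receptor gene that acts on mitochondrial genes, averaged 7.67 ± 0.527 RPKM in cKO and 7.70 ± 1.07 RPKM in floxed libraries, and Esrrg had 4 reads in 1 floxed library.

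Among the orphan receptors of the NR2 group, Nr2c2 (testicular receptor 4) was at 3.63, 3.82 and 3.46 RPKM in cKO and 3.99, 4.53 and 3.95 RPKM in floxed libraries. The groups do not overlap, and the log2 difference was -0.15 (95% interval -0.37 to 0.07, limma's adjusted p = 0.532). Mrps25 on the opposite strand covers 30.7% of its exon bases. Nr2f6, a receptor that restrains T cell cytokine genes in mice, averaged 3.25 ± 0.725 RPKM in cKO and 3.44 ± 0.575 RPKM in floxed libraries, and Ocel1 on the opposite strand covers 54.4% of its exon bases. Nr2c1 averaged 1.64 ± 0.262 RPKM in cKO and 1.66 ± 0.276 RPKM in floxed libraries. Nr1i3, the xenobiotic receptor CAR of liver, only just passed the threshold, at 0.994 ± 0.0641 RPKM in cKO and 0.947 ± 0.107 RPKM in floxed libraries. Tomm40l on the opposite strand covers 74.9% of the exon bases of Nr1i3, so whether these reads belong to it cannot be told apart without the strand setting.

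The members under the threshold numbered 16. Besides Esr1 and Nr1h3 the highest were Thrb, Nr3c2 and Nr6a1, at 0.0620 to 0.360 RPKM over the 6 libraries. Nr6a1, the germ cell nuclear factor gene, was at 0.0988, 0.123 and 0.0628 RPKM in cKO and 0.153, 0.174 and 0.128 RPKM in floxed libraries on 15 to 38 reads, without overlap and without a test. Vdr, the vitamin D receptor gene, had 2 to 17 reads per library. The other 10, Rarb, Rxrg, Nr5a2, Ppara, Pparg, Nr2f1, Nr2f2, Nr1i2, Esrrg and Rorb, had 0 reads in at least 1 library, where a count of 0 allows at most 0.0648 RPKM. These limits cover counting error only and take each read as an independent count. The reads of these 10 genes mostly came in even numbers per library, so reads may not be independent and the limits may be too low.

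All 5 coregulators were expressed, and the corepressor Ncor1 was the highest of all members. Ncor1 was at 60.5, 59.0 and 59.4 RPKM in cKO and 57.4, 61.1 and 60.8 RPKM in floxed libraries, at percentile 92.1 of the tested genes. The groups overlap, and the log2 difference was -0.0024 with a 95% interval of -0.11 to 0.10. The p160 coactivator gene Ncoa3 was at 13.0, 12.04 and 14.7 RPKM in cKO and 12.8, 13.8 and 13.5 RPKM in floxed libraries, which overlap as well. Ncoa2 averaged 11.0 ± 0.510 RPKM in cKO and 11.3 ± 0.835 RPKM in floxed libraries, and Ncoa1 4.88 ± 0.625 RPKM in cKO and 4.49 ± 0.336 RPKM in floxed libraries. Summed over the 3 p160 genes the level was 29.1 ± 0.641 RPKM in cKO and 29.2 ± 1.59 RPKM in floxed libraries (SD, n = 3 each). Nrip1, the gene of the corepressor RIP140 that binds ligand-bound receptors, was at 5.43, 5.56 and 6.13 RPKM in cKO and 6.24, 6.32 and 6.58 RPKM in floxed libraries. All cKO values lay under the floxed ones, by a log2 difference of -0.14 (SE 0.0765, 95% interval -0.32 to 0.04, limma's adjusted p = 0.491).

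Over the 19 tested members, limma called 0 higher and 0 lower at an adjusted p under 0.05, while 1.32% of all 12731 tested genes were called, 0.652% as higher and 0.668% as lower. At an unadjusted p under 0.05, 0 members lay higher and 2 lower, Rarg and Rora, where 14.1% of all tested genes passed in either direction, 8.6% as lower and 5.55% as higher. With voom and TMM, Rarg was the 1 member called, as lower, beside 4.09% of all tested genes in either direction and 1.67% as lower. Without TMM, voom called 2 members, Rarg and Rora, both lower, beside 4.19% of all tested genes in either direction and 2.41% as lower. The groups did not overlap for 4 members, Rarg, Rora, Nrip1 and Nr2c2, all with lower cKO values, beside 20.3% of all tested genes in either direction, 12.7% as lower and 7.61% as higher. The members' count of 4 of 19 is near the background for either direction and above that for lower values, a difference with no test of its own. The median log2 difference of the members was -0.04 and that of all tested genes -0.03, and the members ranged from -0.46 to 0.10. Differences of 15 members were below 0 and of 4 above, but 10 and 9 with TMM scaling and 9 and 10 with median centring, so the share below 0 depends on the scaling. Without floxed replicate 2, 8 members were below 0 and 10 above. Rarg, Rora, Nrip1 and Nr2c2 stayed below 0 under both.

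**Figure D2:**
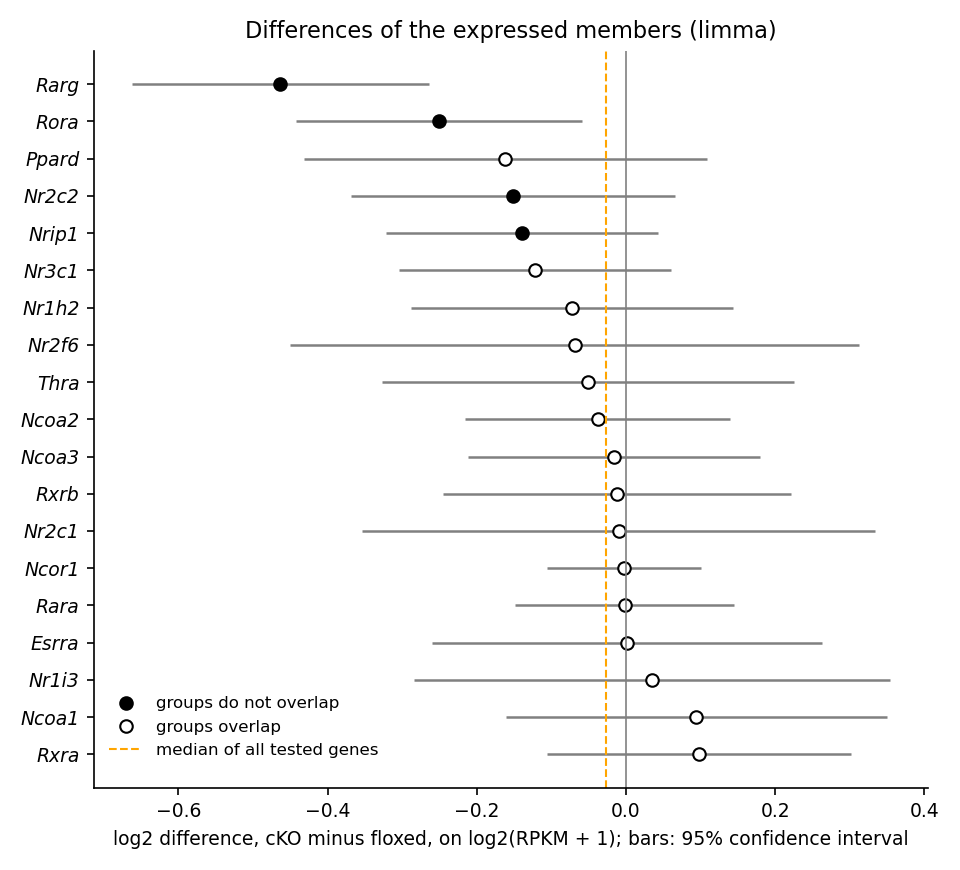
Log2 difference of each expressed member, cKO minus floxed, with limma's 95% confidence interval, ordered from lowest to highest; filled points mark members whose groups do not overlap and the dashed line the median of all tested genes. The intervals of Rarg (-0.66 to -0.26) and Rora (-0.44 to -0.06) lie below 0, and those of the other 17 include it.

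**Figure D3:**
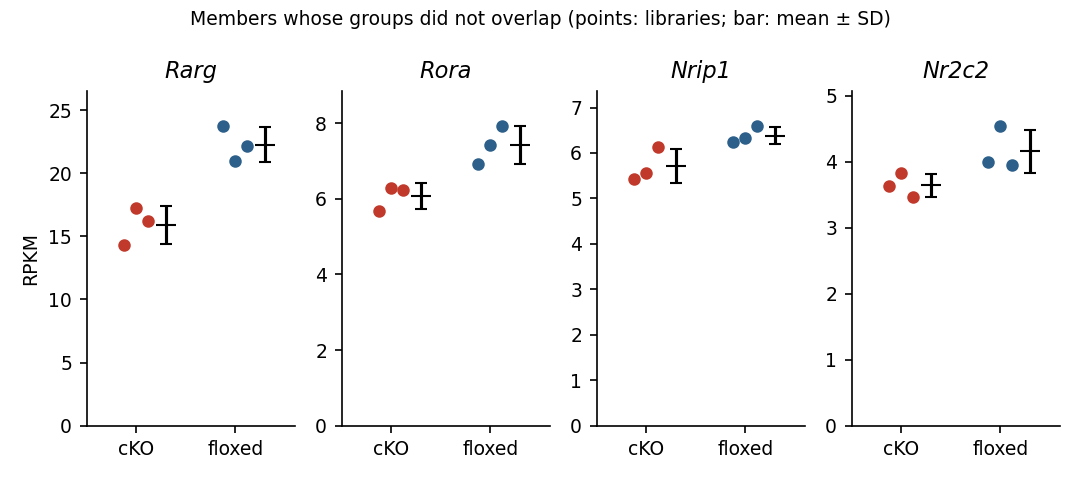
RPKM per library in cKO (left) and floxed (right) libraries for the 4 expressed members whose groups did not overlap, with mean ± SD beside the points (n = 3 each) and axes that start at 0. The gap is widest for Rarg, with means of 15.9 RPKM in cKO and 22.3 RPKM in floxed libraries.

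Receptors outside the list were read from the same table. Nr4a1 and Nr4a2, rapidly induced orphan receptor genes, were more abundant than Rora. Nr4a2 rose to 30.4 ± 0.633 RPKM in cKO, against 21.4 ± 1.53 RPKM in floxed libraries (limma's adjusted p = 0.0222), and both genes also belong to the immediate-early list. Nr4a1 was at 82.0 ± 2.35 RPKM in cKO and 69.9 ± 3.07 RPKM in floxed libraries (adjusted p = 0.101). Their relative Nr4a3, named after its values were seen, was at 5.08 ± 0.717 RPKM in cKO and 7.59 ± 0.125 RPKM in floxed libraries, without overlap (log2 difference -0.51, adjusted p = 0.0882). Nr4a3 belongs to the immediate-early list as well, with a difference in the other direction. Nr1d2, the gene of the clock repressor REV-ERBβ, which competes with RORs for their sites, was at 7.14 ± 0.498 RPKM in cKO and 8.63 ± 0.552 RPKM in floxed libraries (adjusted p = 0.259). Of 6 tested genes on this list, 1 rose, 0 fell and 5 did not pass, with 2 higher and 2 lower unadjusted and 2 and 1 by voom (median -0.09).

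Of 31 other coactivator genes 0 rose and 0 fell in limma, with 1 higher and 9 lower at an unadjusted p under 0.05 and 1 and 2 called by voom (median log2 difference -0.04). The counts of this and the other lists stand beside 5.55% of all tested genes higher and 8.6% lower unadjusted. By voom, 4.09% of all tested genes were called in either direction, 1.67% as lower. No list was tested against these shares. The highest, the RNA helicase gene Ddx5, was at 908 ± 14.3 RPKM in cKO and 824 ± 14.4 RPKM in floxed libraries (adjusted p = 0.156). Of 23 other corepressor genes 0 rose and 0 fell in limma, with 0 higher and 1 lower unadjusted and 0 and 0 by voom (median -0.02). Gps2, a subunit of the NCoR complex, was at 135.4 ± 2.68 RPKM in cKO and 131.7 ± 6.67 RPKM in floxed libraries. Of 14 chaperones that hold steroid receptors ready for hormone 1 rose, 0 fell and 13 did not pass (median 0.02), with 2 higher and 3 lower unadjusted and 2 and 0 by voom. Hsp90aa1, the inducible HSP90, rose to 343 ± 1.34 RPKM in cKO, against 285 ± 2.92 RPKM in floxed libraries (limma's adjusted p = 0.0165).

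Genes known as targets of the receptors were counted by receptor, beside a median of -0.03 over all tested genes. A list of clock and clock output genes was counted as well, and it was not limited to direct ROR targets. Of its 14 tested genes 1 rose, 2 fell and 11 did not pass (median -0.07). Unadjusted, 5 were higher and 3 lower, and voom called 4 higher and 2 lower, so the balance of directions depends on the test. Arntl, which encodes BMAL1 and is a classical ROR target, fell to 2.37 ± 0.290 RPKM in cKO, against 5.24 ± 0.270 RPKM in floxed libraries (log2 difference -0.89, limma's adjusted p = 0.0127). Cry1, a clock repressor, fell to 5.18 ± 0.421 RPKM in cKO, against 10.2 ± 0.818 RPKM in floxed libraries (log2 difference -0.85, adjusted p = 0.00985). Nfil3, a gene with ROR elements as well, rose to 56.4 ± 2.36 RPKM in cKO, against 43.3 ± 1.34 RPKM in floxed libraries (adjusted p = 0.0231). The part of the time of collection in these clock gene differences was not tested. Of 6 other RORα targets 0 rose and 0 fell in limma, with 0 higher and 1 lower unadjusted and 1 and 0 by voom (median -0.04).

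Of 19 glucocorticoid receptor targets 3 rose, 2 fell and 14 did not pass, with a median of 0.12. Unadjusted, 7 were higher and 2 lower, and voom called 6 higher and 2 lower. Dusp1, a MAP kinase phosphatase, rose to 111 ± 8.84 RPKM in cKO, against 66.5 ± 5.35 RPKM in floxed libraries (limma's adjusted p = 0.0115). Rgs2, a regulator of G protein signalling, rose to 64.4 ± 3.62 RPKM in cKO, against 43.0 ± 2.90 RPKM in floxed libraries (adjusted p = 0.0142). Zfp36, which destabilises cytokine mRNAs, rose to 94.97 ± 4.57 RPKM in cKO, against 74.6 ± 3.21 RPKM in floxed libraries (adjusted p = 0.0412). The immediate-early list, of which 19 of 27 rose, holds Dusp1 and Zfp36 too. Txnip, a thioredoxin inhibitor, fell to 64.0 ± 0.553 RPKM in cKO, against 89.2 ± 2.34 RPKM in floxed libraries (adjusted p = 0.00446). Il7r, the IL-7 receptor gene, which is on the ILC1 marker list too, fell to 190.5 ± 1.93 RPKM in cKO, against 227.6 ± 5.49 RPKM in floxed libraries (adjusted p = 0.0279). Tsc22d3, which encodes the glucocorticoid-induced protein GILZ, was at 41.4 ± 0.653 RPKM in cKO and 37.7 ± 3.23 RPKM in floxed libraries (adjusted p = 0.432).

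In the other target lists 0 genes passed in limma. Of 8 retinoid genes, which include the member Rara, 1 was higher and 1 lower unadjusted and 1 and 1 were called by voom (median -0.08). Of 10 LXR targets 3 were higher and 0 lower unadjusted and 2 and 0 by voom (median -0.05). Of 16 PPAR targets 0 were higher and 3 lower unadjusted and 0 and 0 by voom (median -0.04). Of 21 ERR and PGC-1 targets 1 was higher and 1 lower unadjusted and 1 and 0 by voom (median 0.02). Of 14 sterol synthesis and ligand metabolism genes 0 were higher and 0 lower unadjusted and 0 and 0 by voom (median -0.05). Only 2 of 15 vitamin D and thyroid hormone targets were expressed, 0 and 0 passing unadjusted or by voom (median -0.04).

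**Figure D4:**
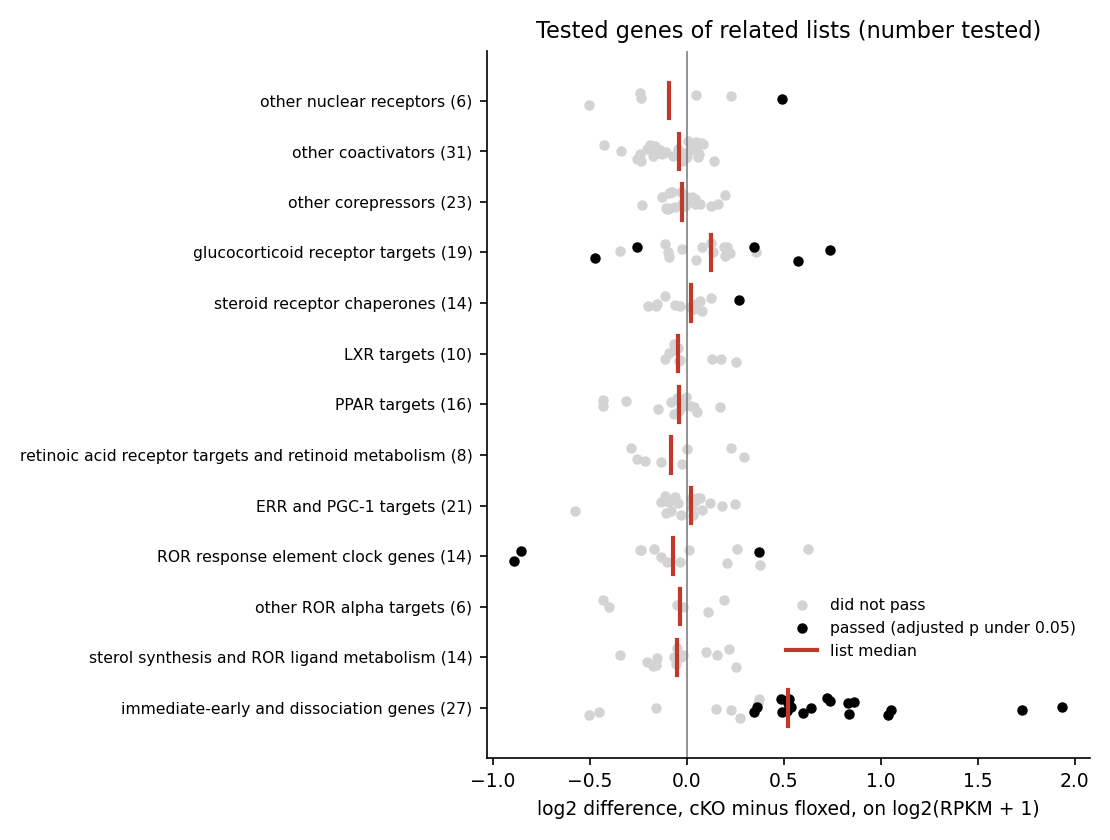
Log2 difference, cKO minus floxed, of each tested gene in 13 related lists (the vitamin D and thyroid hormone list, with 2 tested genes, is not drawn), with the number tested in parentheses; black points passed limma's adjusted p under 0.05, grey points did not, and the red bar is the list median. The immediate-early list has a median of 0.52, and the other medians lie between -0.09 and 0.12. The clock list is not limited to direct ROR targets.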

How the data were processed

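The deposited table holds RPKM per gene, made by the authors, with gene length in bases. Per the submitters' processing notes, the build was mm10 and the tools were featureCounts, Subread 1.5.1, STAR 2.5.3a and edgeR 3.12.1, with no roles stated. Library kit and extraction are, per the labels' protocols, a stranded mRNA kit and TRIzol. How strand and duplicates were handled, and the annotation version, is not stated in these sources.

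Of 24628 genes, 12731 reached 1 RPKM in 3 or more of 6 libraries. Their log2(RPKM + 1) was fitted in limma 3.58.1 (R 4.3.3) by lmFit, then eBayes with trend. This scale understates changes of low genes. A gene passed at a two-sided Benjamini-Hochberg adjusted p under 0.05 over all tested genes. Reads were recovered from RPKM and length, 100% of values being whole within 0.001, for voom with TMM factors computed from their published formula. The scripts were tested on simulated data. In variance, library pairs differed by 4.96 to 5.95 times counting noise per gene at 20 to 100 summed reads, taking each read as independent. Pairs within a group gave 4.96 to 5.47 and pairs between groups 5.31 to 5.95. No library was treated as a duplicate.

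The members and lists were chosen with earlier results of these data known. All expressed members are named; from the other lists, passing genes (at most 6) and the 2 most abundant others could be named. Replicate numbers were not used as pairs. Alternatives were a pseudocount of 0.1, other filters, TMM scaling, median centring, no variance trend, voom, a replicate block and leaving out each library. Results for some items are not reported here.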

Additional observations from a re-analysis of the deposited data

How the results depend on the processing

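Rarg, Rora, Nrip1, Nr2c2, Nr3c1 and Ppard were below 0 and Rxra and Ncoa1 above 0 in all 15 alternatives. The limma count of 168 called genes was 80 without a filter, 74 without a variance trend, 521 with voom and 533 with voom without TMM. With the replicate block it was 60, and leaving out 1 library gave 60 to 90. The refits without a library had fewer samples, and the cause of these lower counts was not tested. The share of called genes that were higher in cKO libraries was 49.4%, and 60.3% with TMM scaling, 63.6% with median centring, 59.3% with voom, 42.4% with voom without TMM and 61.7% with the replicate block. Members called numbered 0 in limma, 1 with voom (Rarg, -0.46) and 2 with voom without TMM (Rarg, -0.49, and Rora, -0.29). The block and each left-out library gave 0 members called. Same-numbered libraries did not deviate together (correlations of -0.0316, 0.0132 and 0.0436), nor did every library correlate best with its own number, so the block does not stand for pairs. Rora was rank 11 by RPKM and rank 6 by reads, and 10 to 11 with a library left out.

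Log2 differences near 0 changed sign for 11 members, none called in any alternative. TMM scaling gave Ncor1 0.029, Rara 0.028, Ncoa3 0.013, Rxrb 0.017 and Nr2c1 0.0099. Median centring gave Ncor1 0.042, Rara 0.042, Ncoa3 0.027, Ncoa2 0.0061, Rxrb 0.032 and Nr2c1 0.034. Voom gave Ncor1 0.030, Rara 0.028, Ncoa3 0.016, Rxrb 0.022 and Nr2c1 0.024. With a library left out, the range was -0.031 to 0.013 for Ncor1, -0.040 to 0.022 for Rara, -0.088 to 0.045 for Ncoa3 and -0.081 to 0.015 for Ncoa2. It was -0.068 to 0.070 for Rxrb, -0.099 to 0.075 for Nr2c1, -0.12 to 0.013 for Nr1h2 and -0.21 to 0.0051 for Nr2f6. It was -0.104 to 0.066 for Esrra, -0.14 to 0.012 for Thra and -0.011 to 0.061 for Nr1i3, which 3 of these refits did not test. Nr2f6, Nr2c1 and Nr1i3 had at most 269 reads in a library, and the part of depth in their spread was not tested.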

Other observations

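Within a library, the ratio of Rarg to Rara RPKM does not depend on library scaling. It was 1.05, 1.15 and 1.17 in cKO and 1.72, 1.49 and 1.51 in floxed libraries, without overlap, and was computed after the values of Rarg were seen. The ratio of Rora to Ncor1 RPKM was 0.094, 0.106 and 0.105 in cKO and 0.121, 0.121 and 0.130 in floxed libraries. Rxrb over Rxra overlapped, at 1.11 to 1.32 in cKO and 1.15 to 1.66 in floxed libraries.

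Among the other coactivators the smallest adjusted p was that of the X-linked demethylase gene Kdm6a, chosen after its value was seen. It was at 6.06 ± 0.412 RPKM in cKO and 8.50 ± 0.0846 RPKM in floxed libraries (SD, n = 3 each; limma's adjusted p = 0.0535), in the same libraries in which Xist was lower (log2 difference -1.65) and Ddx3y higher (0.93) in cKO. Their part in the Kdm6a difference was not tested.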
